A study of Rattus norvegicus with 6 samples.

Results

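Aminoacyl-tRNA synthetases are the enzymes that join each amino acid to its transfer RNA. The transcripts followed here are those of 36 listed synthetase genes, 20 that make the cytosolic enzymes and 16, with names ending in 2, that make the enzymes of mitochondria. A gene was included where the array annotation gave a row exactly 1 gene symbol equal to a listed name or to its current form with a final 1, and of several rows the one with the highest mean was kept. This found 30 of the 36 among 14324 genes measured, namely 19 cytosolic and 11 mitochondrial enzymes. Dars, Cars2, Ears2, Iars2, Mars2 and Wars2 were not analysed here. The groups were ring cultures after 1 day in collagen gel and serum-free EBM medium (day 1) and freshly cut aortic rings (day 0), both from male Fisher 344 rats aged 1 to 2 months. Each group held 3 biological replicates, each a pool of RNA from 4 to 6 cultures or rings on an array of its own. Values are log2 expression, a change is day 1 minus day 0 with its standard error after ±, and the threshold is a limma p-value of 0.05 after Benjamini-Hochberg adjustment over all genes.

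Cells of mammals keep separate nuclear genes for the cytosolic and the mitochondrial synthetases, and both sets of proteins are made in the cytosol. Glycine and lysine are exceptions, since Gars1 and Kars1 encode the enzymes of both places, and the mitochondrial glutamine tRNA is charged by the glutamate enzyme and then amidated. Several cytosolic enzymes sit together in the multisynthetase complex with 3 scaffold proteins encoded by Aimp1, Aimp2 and Eef1e1. In human and mouse cells short of amino acids, the transcription factor ATF4 raises many cytosolic synthetase genes along with amino acid transporters and asparagine synthetase. Some synthetases have further roles in vessels: fragments of human tyrosyl- and tryptophanyl-tRNA synthetase act on endothelial cells, and seryl-tRNA synthetase restrains Vegfa in zebrafish.

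Before the values, the start regions of the genes are shown, because a short motif marked several of the cytosolic genes and none of the mitochondrial ones. RefSeq promoter windows of build GRCr8, from 250 bases before to 50 after the start, were matched for 28 of the 30 genes, 17 cytosolic and 11 mitochondrial. The letters TGATGCAA, the core of the C/EBP-ATF response element to which ATF4 binds in the amino acid response, were found on either strand in 7 of the 17 cytosolic windows and in 0 of the 11 mitochondrial ones. They were found in 0.795% of all 33469 rat windows and in 0.67% of the 12381 windows of measured genes. The 7 stretches below read in the direction of the gene, with the motif in capitals. It appears as TTGCATCA where it lies on the opposite strand.
Aars1: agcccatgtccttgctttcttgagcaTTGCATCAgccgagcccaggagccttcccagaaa
Cars1: ggcaggacttccggcgccgcggTTGCATCA
Iars1: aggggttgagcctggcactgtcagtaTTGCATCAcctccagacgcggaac
Mars1: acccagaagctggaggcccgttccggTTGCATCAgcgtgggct
Nars1: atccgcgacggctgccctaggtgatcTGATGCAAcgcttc
Tars1: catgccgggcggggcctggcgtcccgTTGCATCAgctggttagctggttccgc
Yars1: caagcggagctacgagctcagcTGATGCAA

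In GRCr8 these stretches lie at chr19:55908344-55908403 on the plus strand for Aars1 and at chr1:208225345-208225374 on the minus strand for Cars1. Those of Iars1, Mars1 and Nars1 lie on minus strands, at chr17:15193653-15193702, chr7:65023754-65023796 and chr18:60275783-60275822. That of Tars1 is at chr2:62114803-62114855 on the minus strand and that of Yars1 at chr5:146820179-146820208 on the plus strand. The first base of the motif stood at -112 from the start in Aars1, -27 in Tars1, -24 in Iars1, -17 in Mars1 and -14 in Nars1, all before the annotated start. In Cars1 it stood at 18 and in Yars1 at 39 bases after it. The looser form TGATGNAA, which includes the first, was in the same number of windows, 7 of 17 cytosolic and 0 of 11 mitochondrial, against 3.98% of all windows and 2.96% of those of measured genes. Letters matched in a window are a description and show no binding.

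Another 3 motifs were searched on both strands. The E-box CACGTG, bound by MYC and related factors, was in 5 of 17 cytosolic windows (Aars1, Farsb, Iars1, Tars1 and Vars1) and in 0 of 11 mitochondrial ones, against 6.42% of all windows and 7.75% of those of measured genes. The ETS-type motif CCGGAAGT was in 7 cytosolic and 3 mitochondrial windows, against 3.81% of all and 5.89% of those of measured genes. Windows of Hars1 and Hars2 overlap, so the same copies of this motif count once on each side. The STAT-type motif TTCNNNGAA was in 3 cytosolic windows (Aars1, Lars1 and Qars1) and 1 mitochondrial window (Nars2), against 8.87% of all and 7.64% of those of measured genes. It was not in the window of Wars1, the tryptophan enzyme that interferon-gamma raises in human cells.

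All 19 measured cytosolic synthetases rose after 1 day of culture, by a median of 0.63 log2 units or 1.55-fold. Their changes ran between 0.29 and 0.95, so 0 of them reached 2-fold, a size that 4.13% of all genes reached upward. Of the 11 mitochondrial enzymes 2 rose, Rars2 and Yars2, and 0 fell by limma, also at an unadjusted p of 0.05, with a median change of 0.11. Across all 14324 genes 48.3% passed the threshold, 27.6% upward and 20.7% downward, and the median change was -0.01. On the day 1 arrays the median over the cytosolic rows was 9.48, 9.52 and 9.49, against 8.87, 8.84 and 8.78 on the day 0 arrays. The same median over the mitochondrial rows was 6.73, 6.72 and 6.65 on day 1, against 6.67, 6.70 and 6.72 on day 0. The cytosolic medians of the days lay apart by many times the spread within a day, and the mitochondrial medians overlapped. In RNA of a whole tissue, more cells of a type and more RNA per cell cannot be told apart.

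**Figure D1:**
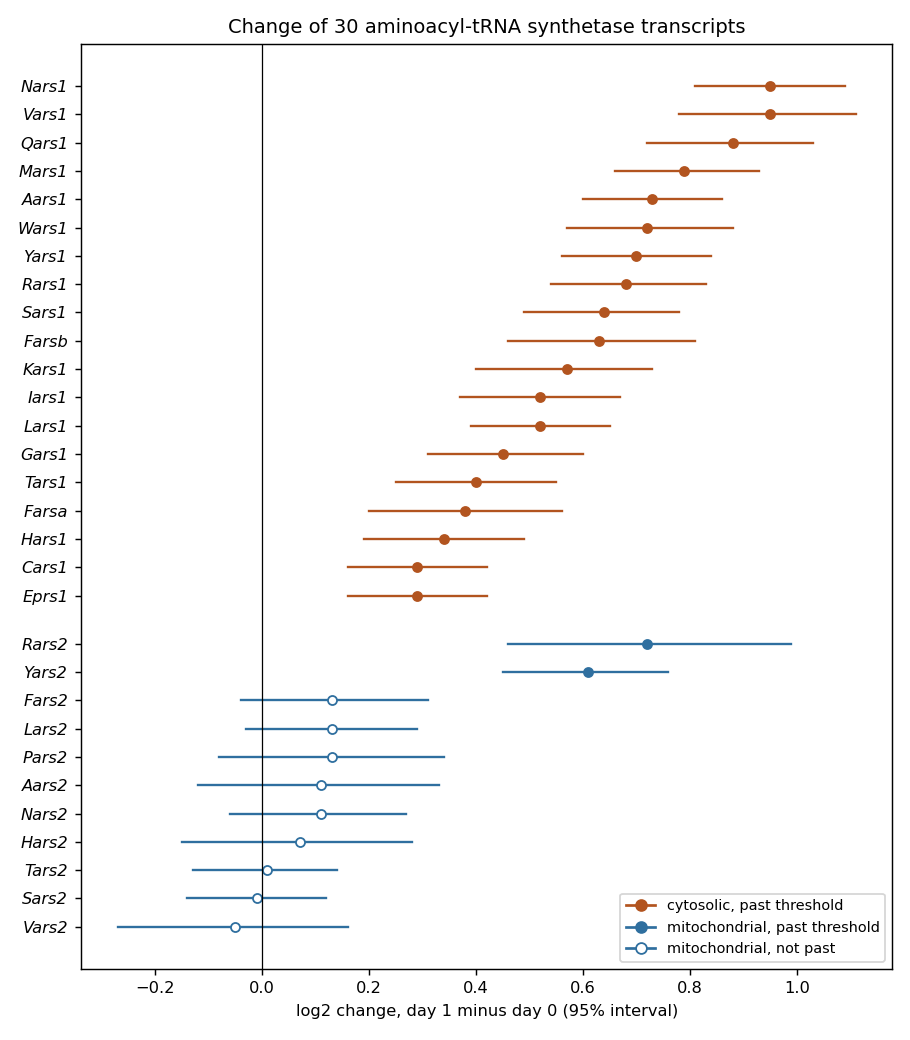
Log2 change (horizontal axis, day 1 minus day 0) of the 30 synthetase transcripts, cytosolic above and mitochondrial below, with 95% intervals from the limma fit and filled points for genes past the threshold. The 19 cytosolic points lie between 0.29 and 0.95, and among the mitochondrial ones Rars2 at 0.72 and Yars2 at 0.61 stand apart from the other 9, which lie between -0.05 and 0.13.

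Every day 1 array was above every day 0 array in all 19 cytosolic genes and in 4 mitochondrial ones, Rars2, Yars2, Lars2 and Nars2, against 31.4% of all genes. The arrays' values were 7.97 to 10.87 for the cytosolic rows and 6.04 to 7.63 for the mitochondrial rows as means over the 6 arrays. Rows have different probes, so these numbers do not rank transcripts by abundance. Whether dimness lessened the measured changes of the mitochondrial rows was not tested. Among the 3132 genes with a mean in the mitochondrial range 37.0% rose, and among the 4165 in the cytosolic range 45.5% rose. The median change of these genes was 0.08 in the mitochondrial and 0.14 in the cytosolic range. Standard errors were 0.06 to 0.11 for the mitochondrial and 0.06 to 0.08 for the cytosolic changes.

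Nars1, which charges asparagine, stood at 10.38, 10.37 and 10.32 on day 1, against 9.47, 9.38 and 9.37 on day 0. That is 1.93-fold higher (0.95 ± 0.06, adjusted p = 6.8e-06), with all day 1 arrays far above the day 0 arrays. Vars1, the valine enzyme, was at 8.45, 8.33 and 8.54 on day 1 and at 7.50, 7.45 and 7.53 on day 0, a change of 0.95 ± 0.07. Its mitochondrial counterpart Vars2 was at 6.81, 6.59 and 6.50 on day 1 and at 6.77, 6.62 and 6.67 on day 0, values that overlap. The change of Vars2 was -0.05 ± 0.09 with a 95% interval between -0.27 and 0.16 (adjusted p = 0.67).

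Within the multisynthetase complex 7 enzymes were measured and all 7 rose, with a median of 0.57. Qars1, the glutamine enzyme, was at 9.62, 9.61 and 9.49 on day 1 and at 8.63, 8.77 and 8.69 on day 0, a rise of 0.88 ± 0.07 (adjusted p = 2.06e-05). Mars1, the methionine enzyme that also charges the initiator tRNA, was at 9.66, 9.68 and 9.71 on day 1 against 8.89, 8.84 and 8.94 on day 0, a rise of 0.79 ± 0.06. At the low end of the complex was Eprs1, which joins the glutamate and proline activities in 1 chain and in human cells also acts in translational silencing after interferon-gamma. It was at 10.57, 10.56 and 10.63 on day 1 against 10.31, 10.32 and 10.26 on day 0, a rise of 0.29 ± 0.06 (adjusted p = 0.00342). Between these lay Rars1 (arginine, 0.68 ± 0.06), Kars1 (lysine, 0.57 ± 0.07), Iars1 (isoleucine, 0.52 ± 0.06) and Lars1 (leucine, 0.52 ± 0.06), whose protein is also a leucine sensor for mTORC1.

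The 3 scaffold genes of the complex rose as well. Aimp1, whose protein also yields a secreted cytokine, was at 9.67, 9.67 and 9.58 on day 1 against 8.76, 8.81 and 8.74 on day 0, a rise of 0.87 ± 0.06. Eef1e1 rose by 0.54 ± 0.08 and Aimp2 by 0.49 ± 0.06. Changes of the scaffolds thus fell inside the range of the enzymes of the complex, 0.29 to 0.88.

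The 12 cytosolic enzyme genes outside the complex had a median change of 0.63, and all 12 rose. After Nars1 and Vars1 came Aars1, the alanine enzyme, at 10.19, 10.14 and 10.16 on day 1 against 9.47, 9.42 and 9.42 on day 0 (0.73 ± 0.06). Wars1, the tryptophan enzyme, was at 9.47, 9.52 and 9.53 on day 1 against 8.87, 8.77 and 8.71 on day 0 (0.72 ± 0.07). Yars1, the tyrosine enzyme, rose by 0.70 ± 0.06 and Sars1, the serine enzyme, by 0.64 ± 0.06. The glycine enzyme gene Gars1, which serves both compartments, rose by 0.45 ± 0.06 and Tars1, the threonine enzyme, by 0.40 ± 0.06.

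Phenylalanyl-tRNA synthetase is built of alpha and beta chains. The beta chain gene Farsb rose by 0.63 ± 0.08 (95% interval 0.46 to 0.81) and the alpha chain gene Farsa by 0.38 ± 0.08 (0.20 to 0.56), so that their intervals overlapped. The smallest changes outside the complex were those of Hars1, the histidine enzyme, with 0.34 ± 0.06, and Cars1, the cysteine enzyme, with 0.29 ± 0.06 (adjusted p = 0.00366). Cars1 was at 9.05, 8.99 and 9.07 on day 1, against 8.73, 8.78 and 8.74 on day 0. Ordered by change, no neighbouring pair among the 30 genes differed by more than 2 standard errors of their difference. Sorting itself makes such gaps small, so this does not show a gradual order. The widest gap, 0.16 ± 0.10, lay between Eprs1, the last gene past the threshold, and Fars2, the first not past it.

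Synthetases fall into a pair of unrelated structural classes, whose changes covered nearly the same range. Class I enzymes of the cytosol, 9 genes without the double enzyme Eprs1, had a median of 0.70 and a range of 0.29 to 0.95. Class II enzymes, 9 genes as well, had a median of 0.57 and a range of 0.34 to 0.95. The motif shown above did not part the cytosolic genes by size of change either. The 7 genes with TGATGCAA had a median of 0.70 (0.29 to 0.95) and the 10 without it a median of 0.60 (0.29 to 0.95). Nars1 with the motif and Vars1 without it had the same change, as did Cars1 with it and Eprs1 without it.

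**Figure D2:**
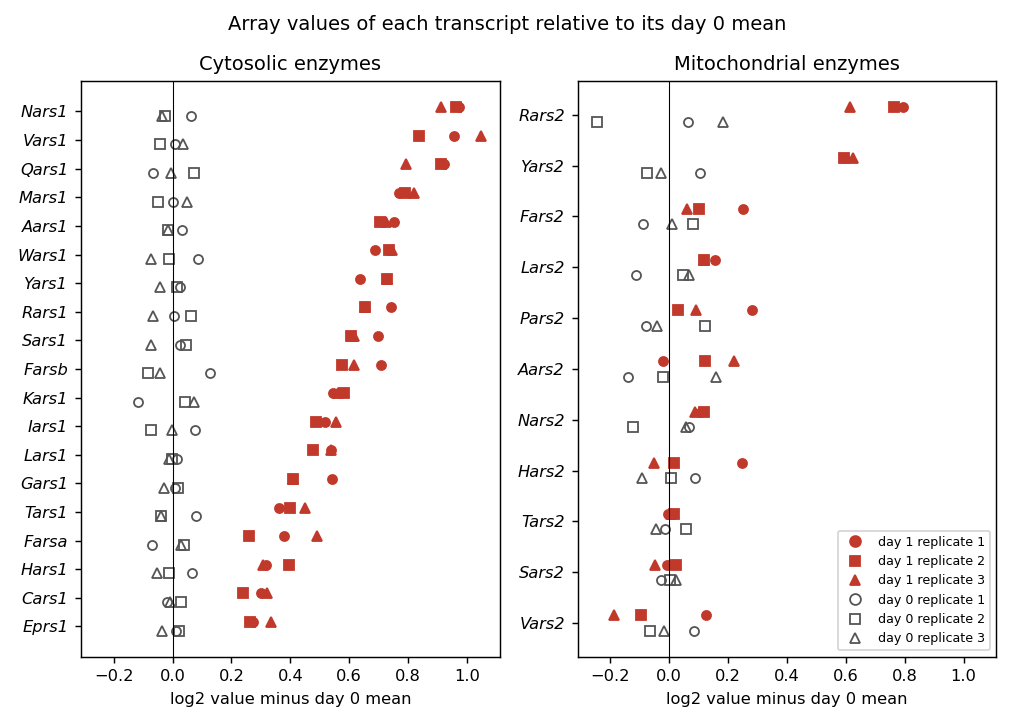
Each array's log2 value minus that gene's day 0 mean (horizontal axis), with filled red symbols for day 1 and open grey symbols for day 0, and 1 symbol shape per replicate number. In the cytosolic panel the red symbols lie to the right of the grey ones in all 19 rows, while in the mitochondrial panel red and grey mix in 7 of 11 rows.

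Among the mitochondrial enzymes, Rars2, which charges arginine, was at 6.47, 6.44 and 6.29 on day 1 and at 5.74, 5.43 and 5.86 on day 0. It rose by 0.72 ± 0.11 (adjusted p = 0.00114), with a day 0 SD of 0.22 that was the widest of the 30 genes. Yars2, which charges tyrosine, was at 7.38, 7.38 and 7.41 on day 1 and at 6.89, 6.71 and 6.76 on day 0, a rise of 0.61 ± 0.07 (adjusted p = 0.000142). Both changes lay inside the cytosolic range.

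The other 9 mitochondrial enzymes missed the threshold, which does not show that they were unaltered. For Tars2 (threonine) the change was 0.01 ± 0.06 and its 95% interval -0.13 to 0.14, and for Sars2 (serine) it was -0.01 ± 0.06 with an interval of -0.14 to 0.12. Those intervals leave out every cytosolic change, the smallest of which was 0.29. Lars2 (leucine) was at 6.67, 6.63 and 6.63 on day 1 and at 6.40, 6.56 and 6.58 on day 0, a change of 0.13 ± 0.07 (adjusted p = 0.167). Its groups did not overlap, nor did those of Nars2 (asparagine, 0.11 ± 0.07, adjusted p = 0.255). Fars2 (phenylalanine) and Pars2 (proline) were both at 0.13, Aars2 (alanine) at 0.11 and Hars2 (histidine) at 0.07. The upper bounds of their intervals, 0.31, 0.34, 0.33 and 0.28, reach or approach the smallest cytosolic changes.

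The same amino acid could be followed in both compartments in 12 pairs, which cover 11 amino acids. For each array the log2 value of the mitochondrial gene was taken from that of the cytosolic gene, which removes effects common to an array. Standard errors of the pair differences came from the 3 day 1 and 3 day 0 values of that pair alone, without limma. They are therefore not comparable with those of single genes. In 9 of the 12 pairs this difference was larger on every day 1 array than on any day 0 array, in 3 the days overlapped, and in 0 it was smaller. All 19 cytosolic genes already lay apart by day on their own, against 31.4% of all genes. The same share among other gene pairs was not computed, and both phenylalanine pairs use Fars2. An exact two-sided permutation test over 3 against 3 arrays cannot give a p below 0.1, and these 9 pairs reached it (0.133 after Benjamini-Hochberg adjustment over the 12 pairs).

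Valine showed the widest gap of the 12 pairs, with Vars1 gaining 1.00 ± 0.13 log2 units on Vars2 (exact permutation p = 0.1). Asparagine followed with 0.84 ± 0.05, serine with 0.64 ± 0.06 and alanine with 0.62 ± 0.13. Leucine and threonine each stood at 0.39, histidine at 0.27, and phenylalanine at 0.50 for the beta and 0.24 for the alpha chain. Proline had a gap of 0.16 ± 0.10 (exact permutation p = 0.3), and its cytosolic activity shares a transcript with that of glutamate in Eprs1. Tyrosine had 0.09 ± 0.06 (exact permutation p = 0.2) and arginine -0.04 ± 0.17 (exact permutation p = 0.9), the pairs in which the mitochondrial gene rose too. Without day 0 replicate 2, where Rars2 was lowest, the arginine gap was 0.12.

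**Figure D3:**
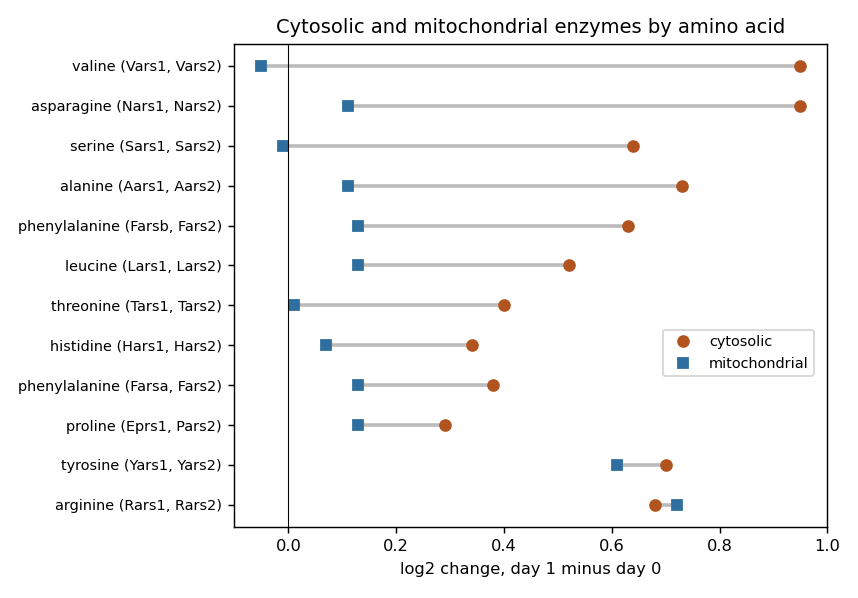
Log2 change (horizontal axis, day 1 minus day 0) of the cytosolic gene (circle) and of the mitochondrial gene (square) for each amino acid, ordered by the gap between them. Valine, at 0.95 and -0.05, has the widest gap, and for arginine the square at 0.72 lies to the right of the circle at 0.68.

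Histidine offered a comparison of neighbours, since Hars1 and Hars2 lie head to head with their annotated starts 144 bases apart on opposite strands. The 143 bases between the starts, at chr18:28672713-28672855 of GRCr8 and read on the plus strand, from Hars1 towards Hars2, are shown because they are shared by a gene that rose and one that did not pass. Capitals mark both copies of CCGGAAGT, which read ACTTCCGG on this strand.
Hars1-Hars2: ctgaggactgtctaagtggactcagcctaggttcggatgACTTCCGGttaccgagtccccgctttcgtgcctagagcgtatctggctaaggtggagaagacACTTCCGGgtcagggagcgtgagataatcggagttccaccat

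On either side of this stretch, Hars1 was at 9.47, 9.55 and 9.46 on day 1 against 9.22, 9.14 and 9.10 on day 0. Hars2 was at 7.84, 7.61 and 7.54 on day 1 against 7.68, 7.60 and 7.50 on day 0. Thus the days were apart for Hars1 and overlapped for Hars2, and the difference of their changes was 0.27 ± 0.10. A second row annotated as Hars1, which was dimmer, was at 5.65, 5.17 and 5.46 on day 1 against 4.94, 4.96 and 5.10 on day 0. Its change was 0.43, in the same direction as the first.

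Another 2 synthetase genes had a measured neighbour starting within 1000 bases in the opposite direction, named after their values were seen. Rars2 starts 79 bases from Orc3, a subunit gene of the replication origin recognition complex. Orc3 was at 7.66, 7.90 and 7.62 on day 1 against 7.59, 7.54 and 7.55 on day 0, a change of 0.16 ± 0.08 (adjusted p = 0.144) beside 0.72 for Rars2. Kars1 starts 128 bases from Terf2ip, a telomere protein gene, which was at -0.03 ± 0.12 (adjusted p = 0.878) beside 0.57 for Kars1. In each of these head-to-head pairs 1 gene passed the threshold.

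Relatives of the synthetases did not all move alike. Tars3, a further threonyl-tRNA synthetase gene of the cytosol that is not among the 36, was at 6.80, 6.83 and 6.93 on day 1 against 7.52, 7.53 and 7.32 on day 0. Its change was -0.60 ± 0.08 (adjusted p = 0.000373), while Tars1 rose by 0.40. The editing domain genes Aarsd1 and Prorsd1 rose by 0.47 ± 0.06 and 0.44 ± 0.10. Pstk, a kinase of selenocysteine tRNA, was at -0.20 ± 0.09 (adjusted p = 0.111), and without day 1 replicate 2 at -0.28 (adjusted p = 0.0421). Together with the 3 scaffold genes, 5 of these 7 measured genes rose and 1 fell, beside 27.6% and 20.7% of all genes.

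Genes that act before and after charging were set beside the 27.6% of all genes that rose and the 20.7% that fell. Of 28 measured genes of tRNA processing and export 19 rose, with a median of 0.43, led by Trmt6 (1.51 ± 0.08) and Trmt1 (0.93 ± 0.08), which make subunits or enzymes of tRNA methylation, and Rpp40 (1.48 ± 0.12), of ribonuclease P. In this list 1 gene fell, the tRNA deaminase gene Adat1, at -0.31 ± 0.11 (adjusted p = 0.0499). This call was lost on leaving out day 1 replicate 2 (adjusted p = 0.144) or replicate 3 (0.114) or day 0 replicate 1 (0.106) or replicate 3 (0.141). Cytosolic initiation and elongation factors rose in 26 of 31 cases with a median of 0.37. The guanine nucleotide exchange factor gene Eif2b3 was at 1.24 ± 0.07, Eif4b at 0.87 ± 0.07 and Eef1b2 at 0.86 ± 0.07, and the muscle and nerve form Eef1a2 was the 1 that fell, at -0.87 ± 0.11.

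Mitochondrial translation factors gave a comparison for the mitochondrial synthetases, again beside the 27.6% of all genes that rose and the 20.7% that fell. Of 10 measured 6 rose, with a median of 0.22, among them the initiation factor gene Mtif2 (0.54 ± 0.09) and the elongation factor genes Gfm1 (0.47 ± 0.08) and Tufm (0.41 ± 0.07). Qrsl1, the amidase subunit that completes the mitochondrial glutamine tRNA, was the 1 that fell, at -0.21 ± 0.07 (adjusted p = 0.0297). Its call was lost without day 1 replicate 1 (adjusted p = 0.0505), replicate 2 (0.0643) or replicate 3 (0.0897) and without day 0 replicate 3 (0.0976).

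**Figure D4:**
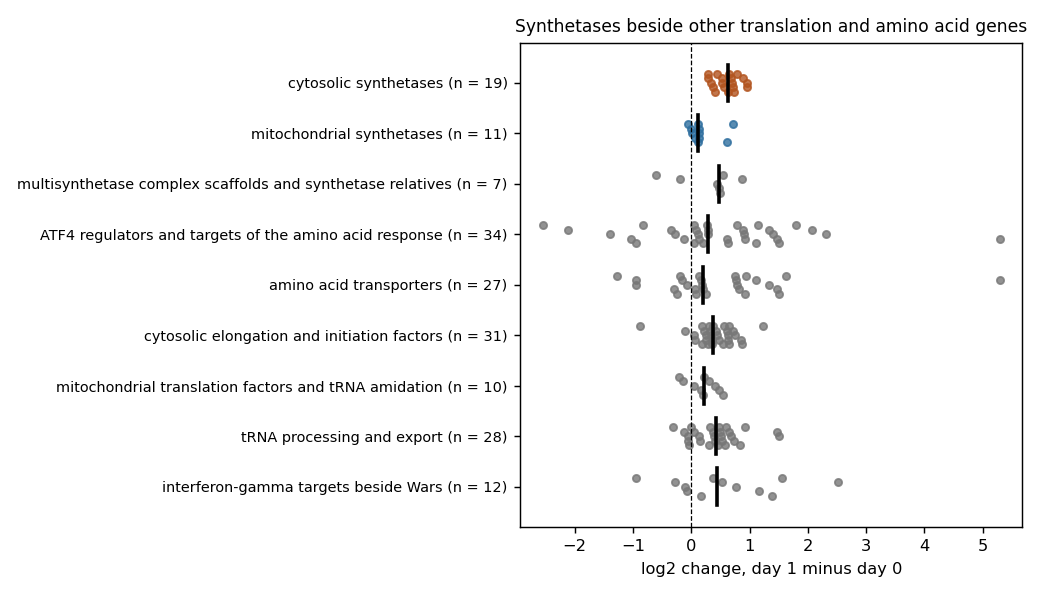
Log2 change (horizontal axis, day 1 minus day 0) of every measured gene of the synthetase groups and of 7 related lists, with 1 point per gene, a black bar at each median and a dashed line at the median of all genes, -0.01. The cytosolic synthetases lie closely around 0.63, while the genes of the ATF4 list reach from -2.54 to 2.31, and to 5.29 with Slc7a11, which was under the lower quartile of the arrays on day 0.

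Genes of the amino acid response spread far more widely than the synthetases. Of 34 regulators and targets of ATF4 measured, 20 rose, 8 fell and 6 did not pass, with a median of 0.29, beside 27.6% of all genes that rose and 20.7% that fell. Atf4 itself was at 10.77, 10.76 and 10.84 on day 1 against 10.56, 10.43 and 10.50 on day 0, a rise of 0.29 ± 0.06, and its activity is known to be set largely by translation. Asns, which makes the substrate of Nars1, rose by 2.31 ± 0.09, and the kinase-like inhibitor gene Trib3 by 2.08 ± 0.17. The cystine carrier gene Slc7a11, which brings in the precursor of the substrate of Cars1, was at 8.70, 8.56 and 8.84 on day 1 against 3.32, 3.43 and 3.49 on day 0. Its fitted change was 5.29 ± 0.09. The day 0 values lie under the arrays' lower quartiles of 4.32 to 4.39, and the table holds no detection calls, so that a signal above background on day 0 is not shown and the size of this change is uncertain. Cars1 itself had the equal lowest rise of the cytosolic enzymes. Atf3, a factor that ATF4 can raise, was at 7.56, 7.57 and 7.59 on day 1 against 10.21, 10.05 and 10.08 on day 0, a change of -2.54 ± 0.06. Of the 29 promoter windows matched for this list 4 held TGATGCAA, against 0.67% of those of measured genes. The looser form TGATGNAA was in 6 of the 29, against 2.96%. None of the 4 genes with TGATGCAA passed upward, while all 7 cytosolic synthetases with it rose. Chac1 (0.04 ± 0.09) and Nupr1 (0.11 ± 0.06) did not pass, while Pycr1 (-1.39 ± 0.17) and Slc1a4 (-0.95 ± 0.09) fell.

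Genes listed as amino acid transporters rose in 14 and fell in 4 of 27 cases, with a median of 0.21. Across all genes 27.6% rose and 20.7% fell. Beside Slc7a11, the large neutral amino acid carrier gene Slc43a1 rose by 1.62 ± 0.14 and the glutamine carrier gene Slc1a5 by 1.50 ± 0.10, while the glutamine carrier gene Slc38a3 was at -1.27 ± 0.06. The other 3 that fell, named after their values were seen, were the glutamate carrier gene Slc1a3 at -0.95 ± 0.07, the neutral amino acid carrier gene Slc1a4 at -0.95 ± 0.09 and the aromatic amino acid carrier gene Slc16a10 at -0.30 ± 0.10 (adjusted p = 0.0407, limma). The Slc16a10 call was lost without day 1 replicate 2 (adjusted p = 0.127) or replicate 3 (0.117), without day 0 replicate 1 (0.109) or replicate 2 (0.11), with median centring (0.0732) and with every row as a feature (0.0593). Interferon-gamma targets were listed because Wars1 is one in human cells. They rose in 7 of 12 cases, against 27.6% of all genes, with a median of 0.45. Cxcl10 was at 2.52 ± 0.29, Gbp2 at 1.56 ± 0.11 and Cxcl11 at 1.38 ± 0.22. Of the list 2 genes fell, the feedback inhibitor gene Socs1 at -0.94 ± 0.11 and the tryptophan-degrading enzyme gene Ido1 at -0.28 ± 0.09 (adjusted p = 0.0269). Ido1 was at 3.37 to 3.45 on day 1 and at 3.50 to 3.79 on day 0, under the lower quartile of every array, so that a signal above background is not shown on either day. Its call was lost without day 1 replicate 2 (adjusted p = 0.0752) or replicate 3 (0.076) and without day 0 replicate 2 (0.083) or replicate 3 (0.0876).

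Cell type markers moved between the same arrays, on which 27.6% of all genes rose and 20.7% fell. Of the listed markers, 4 of 6 endothelial, 5 of 6 lymphocyte and 3 of 5 erythroid ones were measured. All 6 smooth muscle markers fell, with summed log2 values of 49.97 to 50.98 on day 1 against 70.96 to 71.49 on day 0, and the dimmest of them averaged 6.86 on day 1. Of 6 macrophage markers 3 rose and 2, Csf1r and Cd163, fell (sums 52.99 to 54.05 on day 1, 50.23 to 50.68 on day 0). Of 4 endothelial markers 3 rose and 1, Tek, fell (34.48 to 35.01 on day 1, 33.02 to 33.79 on day 0), and of 6 fibroblast markers 3 rose and 3 fell (69.60 to 70.20 on day 1, 69.63 to 70.20 on day 0). Adipocyte markers fell in 5 of 6 cases (33.09 to 33.19 on day 1, 39.12 to 40.26 on day 0) and erythroid markers in 2 of 3 (16.48 to 16.94 on day 1, 19.93 to 21.05 on day 0). Of 5 lymphocyte markers 1, Cd2, fell (20.82 to 21.39 on day 1, 21.45 to 22.07 on day 0), and none averaged above 5.66 on day 1 or 5.70 on day 0. The limma fit called 0 of 5 neutrophil markers, and 1 of them, Fpr1, at an unadjusted p of 0.05 (19.32 to 19.47 on day 1, 19.61 to 20.49 on day 0). The part of these shifts in the synthetase changes was not tested.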

How the data were processed

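The deposited table holds log2 expression values for 27342 rows and 6 Affymetrix whole-transcript arrays, labelled from 200 ng of total RNA per the labels' protocols. Values ran from 1.32 to 14.16, from which the log2 scale was read. Per the submitters' processing notes limma was used, and how background and arrays were corrected is not stated there. Array medians lay at 5.87 to 5.95, so nothing was rescaled. Rows with exactly 1 symbol (15097) were named by Entrez ID (15067), by accession (1) or as annotated (29), which left 14324 genes.

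Day 1 was tested against day 0 by limma (version 3.58.1, R 4.3.3, lmFit and eBayes, two-sided) across all genes. A run on simulated independent values, with only a small part of the genes changed, came first. It does not show how the fit performs on data where 48.3% of genes pass. Pair differences used exact permutation tests (scipy 1.17.1, Python 3.11.15). Whether 2 pools had an animal in common is not in the labels, and the p-values reflect only how far these pools differ. The number of arrays limits the precision.

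Members, lists and motifs were chosen with earlier results of these data known. All measured members are named. Of each other list, the 3 largest changes of the majority, the largest opposing change and 6 preset genes were to be named, with some others named after their values were seen. Alternatives were 10 other settings and each array left out.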

Additional observations from a re-analysis of the deposited data

How the results depend on the processing

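All 19 cytosolic synthetases passed the threshold upward under each of the 16 alternatives, and Rars2 and Yars2 did so under each alternative that tested them. With only genes at or above the median mean, Rars2 is not tested, which leaves 1 mitochondrial gene that rose, Yars2. None of the other 9 mitochondrial genes passed under any alternative. Deviations of same-numbered arrays correlated at r = 0.011, 0.019 and 0.036 across genes, against -0.054 to 0.036 for differently numbered arrays. Not every array correlated best with its own number. With so few arrays per group, these correlations cannot decide whether the replicate numbers are a pairing. With a replicate block the counts were again 19 and 2, and 6686 genes in all passed, against 6915 without it. The median change of the cytosolic genes was 0.52 with quantile normalization and 0.68 with median centring, and 0.59 to 0.65 with 1 array left out. That of the mitochondrial genes was 0.07 with quantile normalization, 0.16 with median centring and 0.08 to 0.13 with 1 array left out. The gap of the arginine pair lay between -0.16 and 0.12 with 1 array left out and was above 0 without day 0 replicate 2 only.

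Small counts of genes that fell in the related lists moved. Quantile normalization gave 2 in the cytosolic factor list. In the mitochondrial factor list it gave 2, as did leaving out the dimmest 25% of genes. Median centring, an intensity trend with robust prior and the replicate block gave 0 there, and leaving out 1 array 0 to 1. For tRNA processing the count was 0 with quantile normalization, median centring, the most variable row or every row as a feature. It was also 0 with genes above the median mean, where Adat1 is not tested, and 0 to 1 with 1 array left out. For the interferon-gamma targets it was 1 with quantile normalization, the trend or the replicate block, and 1 to 2 with 1 array left out. The count was also 1 with either filter on dim genes, where Ido1 is not tested. For the synthetase relatives it was 2 with genes above the median mean, where Pstk passes, and 1 to 2 with 1 array left out. Where no construction is named, the cause was not tested. Signal over background is not given in the table, which limits what dim rows can show.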
